A study of Homo sapiens with 24 samples.

Results

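The genes described here were chosen by symbol, 10 of the 29794 genes in the count tables, and encode parts of the NF-κB pathway. They are the NF-κB subunits NFKB1 and RELA, the inhibitor NFKBIA, and the signalling proteins TAB2, MYD88, TRAF6, RIPK1, IRAK1, IKBKE and TNFAIP3. Counts could be assigned to 9 of the 10 genes, and IKBKE was not analysed here because its row could not be matched by symbol. All 9 passed the filter on low counts in both batches, among 14348 genes tested in batch 1 and 14054 in batch 2. RNA was measured by poly(A)-selected, strand-specific RNA-seq in Flp-In T-REx 293 cells (derived from human embryonic kidney and able to switch on a transgene with doxycycline), transduced with a lentiviral vector in which a miRNA hairpin sits within an intron of a doxycycline-inducible GFP. Control cells carried the vector without a hairpin, called empty vector. All cells, controls included, were selected for 6 days with 1 mg/mL Geneticin and then given 1 µg/mL doxycycline for 7 days. Batch 1 comprised empty vector, miR-1 and miR-122 (2 libraries per group), and batch 2 comprised empty vector, miR-155, miR-133a, miR-373, miR-372 and miR-302a (3 libraries per group). The replicates were separate transductions according to the study, and each miRNA was compared only with the empty vector of its own batch.

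NF-κB is a family of dimeric transcription factors that inhibitor proteins such as IκBα, the product of NFKBIA, hold in the cytoplasm. Toll-like and interleukin-1 receptors signal through the adaptor MYD88, the kinase IRAK1 and the ubiquitin ligase TRAF6, whose ubiquitin chains are bound by TAB2, a partner of the kinase TAK1, and TAK1 in turn activates the IκB kinases that release the p65 (RELA) and p50 (NFKB1) subunits. RIPK1 carries the signal from tumour necrosis factor receptors, and TNFAIP3 (A20) edits the ubiquitin chains and limits it. A miRNA guides Argonaute to messages that pair with its seed, usually in the 3′UTR, and miR-155 is well known as a miRNA of activated immune cells.

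The sequences that a seed search uses are shown first. The labels name no arm, so the usual guide arm was taken from RefSeq (GRCh38.p14 table), with the seed, bases 2 to 8, in capitals. The lower 3 share 1 seed and are called the same-seed family.
miR-155-5p: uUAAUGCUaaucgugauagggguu
miR-302a-3p: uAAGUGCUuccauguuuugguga
miR-372-3p: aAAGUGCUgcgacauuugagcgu
miR-373-3p: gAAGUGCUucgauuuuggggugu

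Matches were sought on the transcript strand of the longest annotated 3′UTR as 8mer, 7mer-m8 or 7mer-A1 sites. The 8mer was AGCATTAA for miR-155 and AGCACTTA for the same-seed family, the 7mer-m8 lacks the final A and the 7mer-A1 lacks the first A. The windows below hold the miR-155 and same-seed family matches in the genes whose RNA level differed from empty vector in at least 1 comparison, with the match in capitals. Coordinates are on GRCh37.
RELA, miR-155 8mer (chr11:65421645-65421652, minus strand): taagcagaAGCATTAActtctc
RELA, same-seed family 8mer (chr11:65421783-65421790, minus strand): cctccaaaAGCACTTAcggatt
RELA, same-seed family 7mer-m8 (chr11:65421121-65421127, minus strand): acaatcaaAGCACTTggactc
TAB2, miR-155 8mer (chr6:149731673-149731680, plus strand): aataaaaaAGCATTAAtgagat
MYD88, miR-155 7mer-A1 (chr3:38184397-38184403, plus strand): ttttgtacGCATTAAaataat

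All 5 windows lie in the 3′UTR of the annotation's canonical transcript as well. A miR-155 match was present in the longest 3′UTR of 5 of the 10 genes, against 16.9% of the 18434 genes with a 3′UTR, and an 8mer is held by 4.45% of those genes. Several of the 10 genes are reported miR-155 targets, so their choice favours such matches and the share is no test of the pathway. The other miR-155 matches were 2 7mer-m8 sites of IKBKE and an 8mer of NFKBIA that occurs in only 2 of its 6 annotated 3′UTR isoforms and is intronic in the canonical transcript. For the same-seed family, RELA, TRAF6 and IRAK1 held a match, against 26.4% of genes, and 3.67% of genes hold an 8mer. The 7mer-m8 of IRAK1 and the first of the 3 family matches of TRAF6 share their last 20 bases with the 3′UTRs of 1234 genes. NFKB1 and RIPK1 held no match for any of the 7 miRNAs in the 3′UTR. In the coding region, TAB2 held a miR-155 7mer-m8 and a family 7mer-m8, IRAK1 a family 7mer-m8 and a miR-133a 7mer-m8, MYD88 a miR-133a 7mer-A1 and NFKBIA 2 miR-122 7mer-A1 sites. A coding match is held by 9.62% of 18220 genes for miR-155, 14.6% for the family, 19.5% for miR-133a and 15.7% for miR-122. A match describes letters in the annotation and is no measure of binding.

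**Figure D1:**
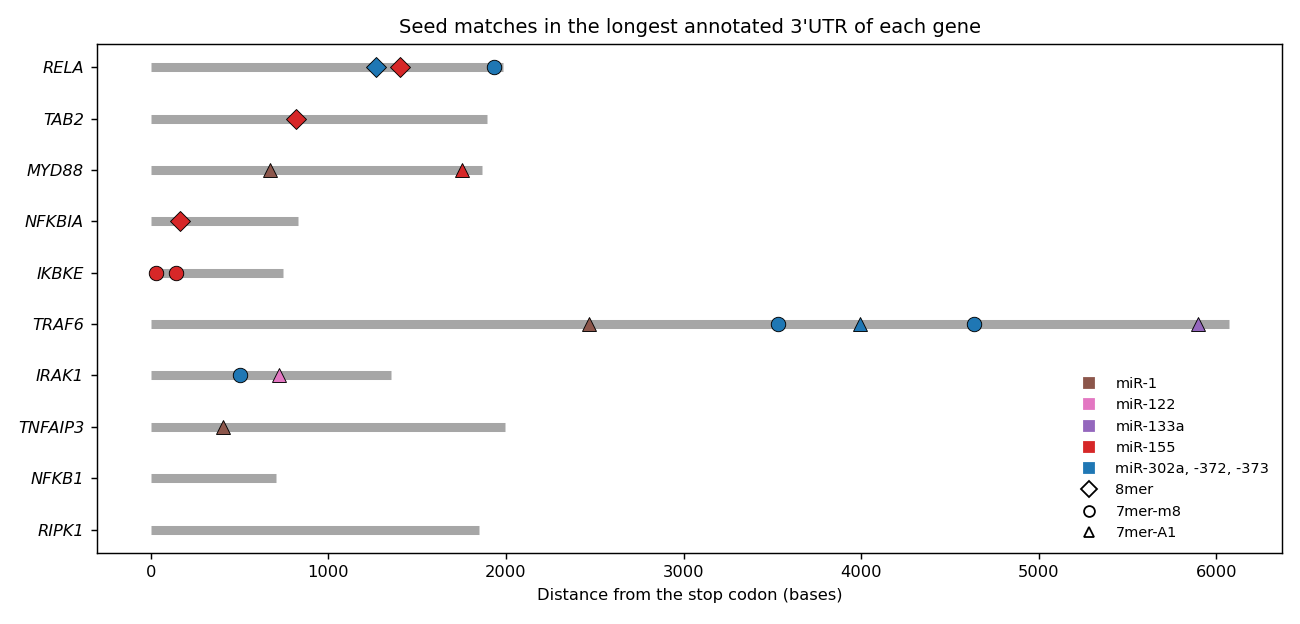
Seed matches along the longest annotated 3′UTR of each of the 10 genes, drawn to scale in bases from the stop codon; colour gives the miRNA and shape the class of match. RELA is the gene with an 8mer for both miR-155 and the same-seed family, the 6069-base 3′UTR of TRAF6 carries 5 of the matches, and NFKB1 and RIPK1 carry 0.

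Library totals ran from 20153452 to 21595191 counts in batch 1 and from 13047400 to 35040778 in batch 2. miR-155 replicate 2 and miR-372 replicate 2 stood apart from the other 16 libraries of batch 2, with second principal component scores of -28.7 and -36.8 against -11.4 or higher in the rest. The 5 measured HEK293 markers (VIM, CDH2, PAX2, NES, NEFM) summed to between 1030 and 1415 CPM in every library. Most of this sum was VIM, at 908 to 1310 CPM. CDH2 was at 85.6 to 121 CPM, PAX2 at 5.28 to 13.8, NES at 2.22 to 19.7 and NEFM at 1.26 to 4.42 CPM. The 5 markers of blood cells (PTPRC, CD14, CD3E, ITGAM, LYZ) summed to at most 1.75 CPM. PTPRC, CD3E and LYZ were at 0 counts in at least 1 library each, and CD14 reached at most 1.47 CPM. Known targets tested as a check of the labels (TWF1, ALDOA, TAGLN2, JARID2, BACH1 and LATS2) fell in all 8 pairs with their miRNA, with log2 fold changes from -1.99 to -0.47.

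Levels of the 9 genes in the empty vector cells of batch 2 are compared per kilobase of counted exon. IRAK1 was the most abundant at 149 ± 10.98 CPM per kb (SD, n = 3), followed by TAB2 at 20.2 ± 0.615, RELA at 13.1 ± 1.92 and NFKBIA at 12.8 ± 0.298 CPM per kb. NFKB1 (6.02 ± 0.429), MYD88 (5.32 ± 0.475), TRAF6 (3.45 ± 0.203), RIPK1 (3.06 ± 0.405) and TNFAIP3 (1.60 ± 0.0705) followed in the same unit. The libraries of RELA and NFKBIA, of NFKB1 and MYD88, and of TRAF6 and RIPK1 overlapped, and the other neighbours in this order did not. TNFAIP3 had the fewest reads, 59 to 210 counts per library of batch 2, and IRAK1 the most, 5418 to 18129.

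TAB2, the ubiquitin-binding partner of TAK1, was lower with miR-155. TAB2 stood at 98.2, 100 and 94.5 CPM (counts scaled to library size with TMM factors) in the 3 empty vector libraries and at 60.02, 66.4 and 67.7 CPM with miR-155. Every miR-155 library was below every empty vector library and below each library of the other miRNAs of batch 2, of which the lowest was 79.2 CPM with miR-372. The log2 fold change was -0.59 (SE 0.070, adjusted p = 1.76e-05, edgeR quasi-likelihood test, Benjamini-Hochberg), a level 33.8% lower. Leaving out any library of the comparison gave between -0.63 and -0.54. TAB2 overlaps 4 other annotated genes on its strand (SUMO4 among them), and the part of their reads in its counts was not tested. In these bulk libraries, fewer cells with a transcript and less of it per cell cannot be told apart.

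MYD88, the adaptor of Toll-like and interleukin-1 receptors, was also lower with miR-155. It stood at 14.0, 16.7 and 15.1 CPM in empty vector cells and at 11.2, 12.4 and 10.4 CPM with miR-155. The miR-155 libraries again lay below all empty vector libraries, with a narrower gap than for TAB2. The log2 fold change was -0.43 (SE 0.12, adjusted p = 0.0308, edgeR quasi-likelihood test). This call was lost without empty vector replicate 2 (-0.36, adjusted p = 0.166) or replicate 3 (adjusted p = 0.0830) and without miR-155 replicate 1 (adjusted p = 0.0850) or replicate 3 (adjusted p = 0.0936), and also in a fit of only these 2 groups (adjusted p = 0.0663) or with each library's length slope as a covariate (adjusted p = 0.129). DESeq2 called it (adjusted p = 0.0190).

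TAB2 and MYD88 were the 2 of the 9 genes called with miR-155, where 7.63% of all genes tested were called. RELA, which carries an 8mer for miR-155, stood at 46.6, 42.6 and 44.8 CPM against 44.03, 59.05 and 54.3 CPM in empty vector cells. Its log2 fold change of -0.23 (SE 0.088) did not pass (adjusted p = 0.115), and the groups overlapped through empty vector replicate 1, the lowest control. Without that library the value was -0.34 and passed (adjusted p = 0.0140, edgeR quasi-likelihood test). NFKBIA, whose 8mer is in 2 of 6 isoforms, had a log2 fold change of 0.02 (SE 0.13). Its miR-155 libraries stood at 21.9, 30.1 and 22.2 CPM, the highest being replicate 2, one of the libraries that stand apart, and without it the log2 fold change was -0.14 (adjusted p = 0.687). A pair of genes without a miR-155 match in the 3′UTR had all miR-155 libraries below the controls and still did not pass, TNFAIP3 at -0.46 (SE 0.16, adjusted p = 0.0798) and TRAF6 at -0.30 (SE 0.12, adjusted p = 0.144, edgeR quasi-likelihood test). NFKB1 (-0.11), IRAK1 (-0.11) and RIPK1 (0.04) had the remaining log2 fold changes. Over the 9 genes the log2 fold changes had a median of -0.23, and over all genes tested of 0.01.

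**Figure D2:**
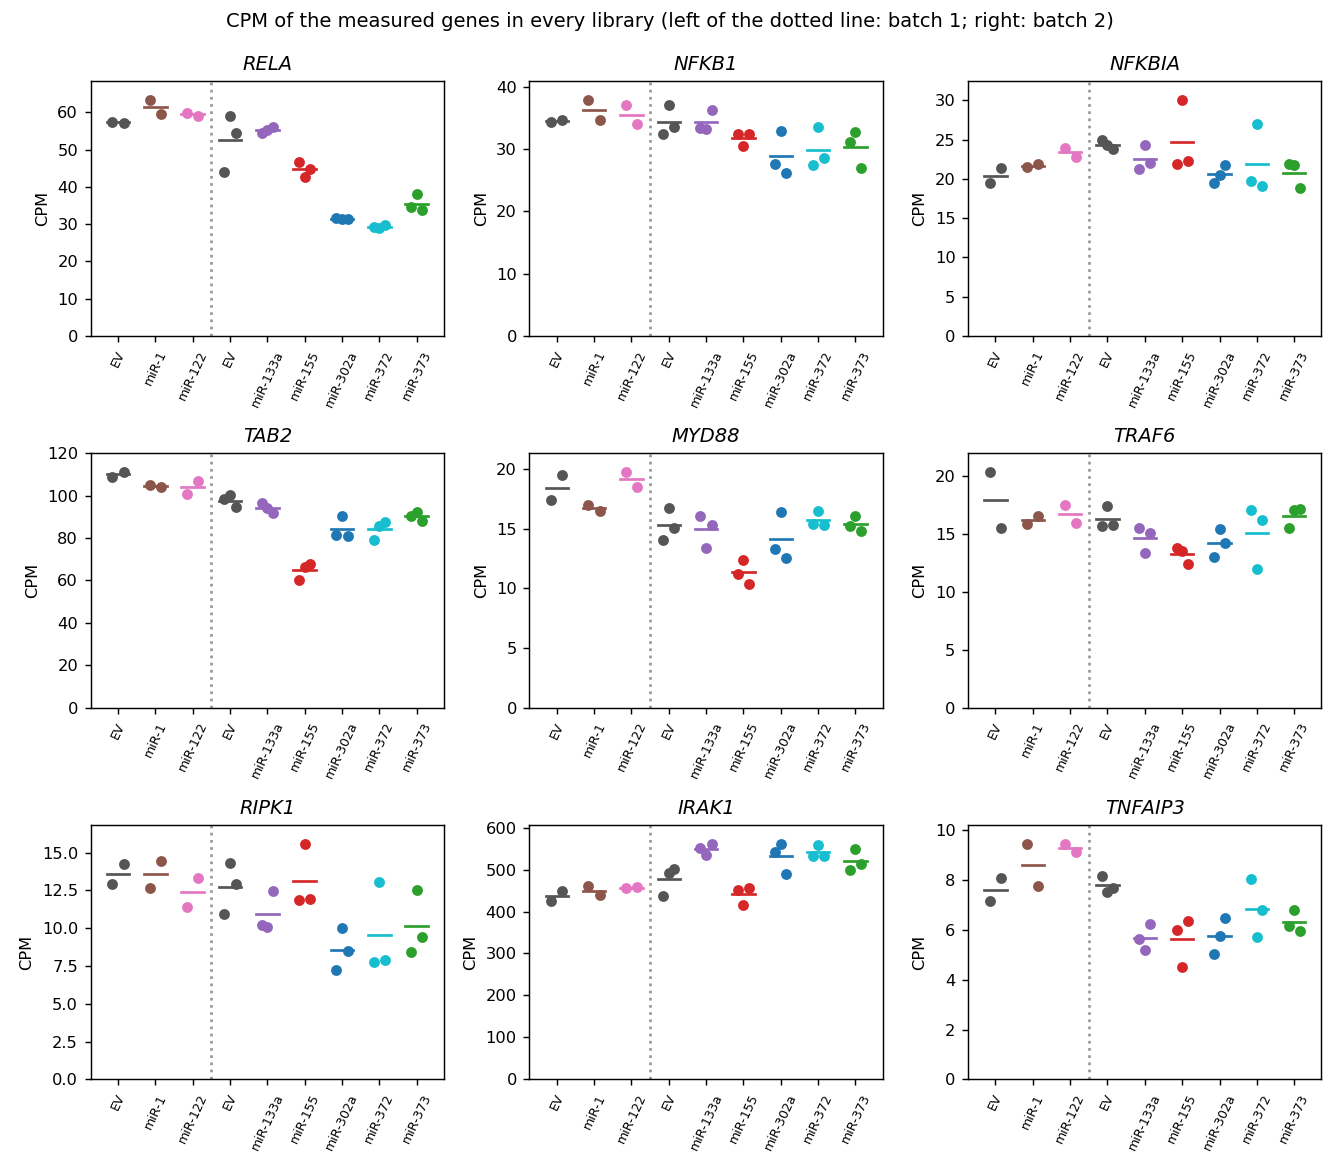
CPM of the 9 measured genes in each of the 24 libraries (points) with the group means (lines), batch 1 left and batch 2 right of the dotted line; each panel has its own axis from 0. TAB2 and MYD88 are lowest in the miR-155 libraries, and RELA is lowest in the libraries of the same-seed family, at 28.8 to 38.1 CPM.

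RELA, the p65 subunit, was lower with each miRNA of the same-seed family. Against the 44.03, 59.05 and 54.3 CPM of empty vector cells, RELA stood at 31.6, 31.4 and 31.4 CPM with miR-302a. It stood at 29.1, 28.8 and 29.8 CPM with miR-372, and at 34.5, 38.1 and 33.7 CPM with miR-373. All 9 family libraries were below the lowest control library, and the 3 groups did not overlap with each other, a difference that was not tested. The log2 fold change was -0.74 (SE 0.090, adjusted p = 3.49e-05) with miR-302a, a level 40.1% lower. With miR-372 it was -0.84 (SE 0.090, adjusted p = 5.44e-06), a level 44.3% lower. With miR-373 it was -0.57 (SE 0.088, adjusted p = 0.000623), a level 32.6% lower, all by edgeR's quasi-likelihood test. Under each alternative and without each library of its comparison these 3 calls remained, and the values ranged from -0.95 to -0.47.

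RELA was the only 1 of the 9 genes called with miR-302a, where 7.88% of all genes were called. It was also the only 1 called with miR-372 (11.4% of all genes) and with miR-373 (5.13% of all genes). The 3 comparisons share the empty vector libraries. The mean of the 3 family groups against empty vector called 2 of the 9 genes, where 15.4% of all genes were called, namely RELA (-0.72, SE 0.070, adjusted p = 1.25e-06) and TAB2 (-0.18, SE 0.056, adjusted p = 0.0344). The smaller TAB2 difference did not pass without any 1 of the 3 empty vector libraries (adjusted p = 0.183 without replicate 2), nor without replicate 1 or 3 of miR-302a, replicate 1 of miR-372 or replicate 1 or 3 of miR-373. TRAF6 and IRAK1, which also carry family matches, had log2 fold changes against empty vector of -0.09 (SE 0.098) and 0.16 (SE 0.062, adjusted p = 0.0967), neither of which passed.

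RIPK1, the kinase of tumour necrosis factor receptor signalling and a gene without a seed match, had the next lowest log2 fold changes with the family. It stood at 10.95, 14.3 and 12.9 CPM in empty vector cells and at 7.23, 10.0 and 8.47 CPM with miR-302a. With miR-372 it stood at 7.77, 13.1 and 7.89 CPM and with miR-373 at 8.41, 12.5 and 9.45 CPM. Replicate 2 was the highest of each of these 3 groups. The log2 fold change of the family mean was -0.44 (SE 0.16) and did not pass (adjusted p = 0.0654, edgeR quasi-likelihood test). With both libraries that stand apart left out, it was -0.53 and passed (adjusted p = 0.00543). With single miRNAs, leaving out these 2 libraries moved RIPK1 from -0.44 (adjusted p = 0.166) to -0.70 (adjusted p = 0.0124) with miR-372, and its adjusted p from 0.0909 to 0.0209 with miR-302a (-0.57 and -0.56). It also brought under the threshold NFKBIA with miR-372 (-0.32, adjusted p = 0.0409), TAB2 with miR-302a (-0.21, adjusted p = 0.0434) and TNFAIP3 with miR-302a (-0.43, adjusted p = 0.0420). For the family mean, NFKBIA was at -0.21 (adjusted p = 0.192) with all libraries and at -0.27 (adjusted p = 0.0146) without those 2 libraries. NFKB1 was at -0.21 (adjusted p = 0.0886) and at -0.24 (adjusted p = 0.0340), respectively.

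The direct contrasts between miRNAs asked whether these differences set the miRNAs apart. Empty vector libraries carry no weight in these contrasts, but they stay in the fit, its scaling and its estimate of the spread. miR-155 was compared with the mean of the other 4 miRNA groups of batch 2, and 5 of the 9 genes were called, where 25.0% of all genes were called. TAB2 (-0.45, SE 0.057, adjusted p = 1.13e-05), MYD88 (-0.41, SE 0.096, adjusted p = 0.00397) and IRAK1 (-0.28, SE 0.061, adjusted p = 0.00218) were lower with miR-155. These 3 calls remained without each library in turn. Against empty vector, IRAK1 was at -0.11 with miR-155 and at 0.13 to 0.21 with the other 4 miRNAs, none of which passed. RELA was higher with miR-155 than the mean of the others (0.29, SE 0.069, adjusted p = 0.00491), as was RIPK1 (0.43, SE 0.15, adjusted p = 0.0477, edgeR quasi-likelihood test). For RELA, the miR-155 libraries (42.6 to 46.6 CPM) were above every family library (28.8 to 38.1 CPM). They were below every miR-133a library (54.5 to 56.1 CPM). The RIPK1 call was lost in 11 of 15 fits that left out a library (it held without miR-133a replicate 3 or replicate 2 of miR-302a, miR-372 or miR-373), and without miR-155 replicate 2, its highest library at 15.6 CPM, the value was 0.29 (adjusted p = 0.287). Without both libraries that stand apart it was 0.35 (adjusted p = 0.0830).

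The mean of the same-seed family against the mean of miR-133a and miR-155, a contrast added after the values were seen, called 4 of the 9 genes, where 27.8% of all genes were called. RELA was lower with the family (-0.64, SE 0.057, adjusted p = 1.08e-07), as in each fit without 1 library (-0.66 to -0.62). RIPK1 was also lower (-0.35, SE 0.13, adjusted p = 0.0464), and MYD88 (0.21, SE 0.076, adjusted p = 0.0433) and TAB2 (0.14, SE 0.045, adjusted p = 0.0221) were higher with the family. Leaving out single libraries ended the call of MYD88 in 11 of 15 fits (it held without miR-133a replicate 1, miR-155 replicate 2 or replicate 1 or 3 of miR-302a) and that of TAB2 in 2 of 15, without miR-133a replicate 3 (adjusted p = 0.0646) or miR-155 replicate 1 (adjusted p = 0.0872). For RIPK1, the value without miR-155 replicate 2 was -0.28 (adjusted p = 0.133), and 11 of 15 such fits ended its call (it held without miR-155 replicate 3 or replicate 2 of miR-302a, miR-372 or miR-373). NFKB1 did not pass (-0.16, adjusted p = 0.0841), but passed with the replicate number as a block (-0.16, adjusted p = 0.0423) and without both libraries that stand apart (-0.20, adjusted p = 0.0295).

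**Figure D3:**
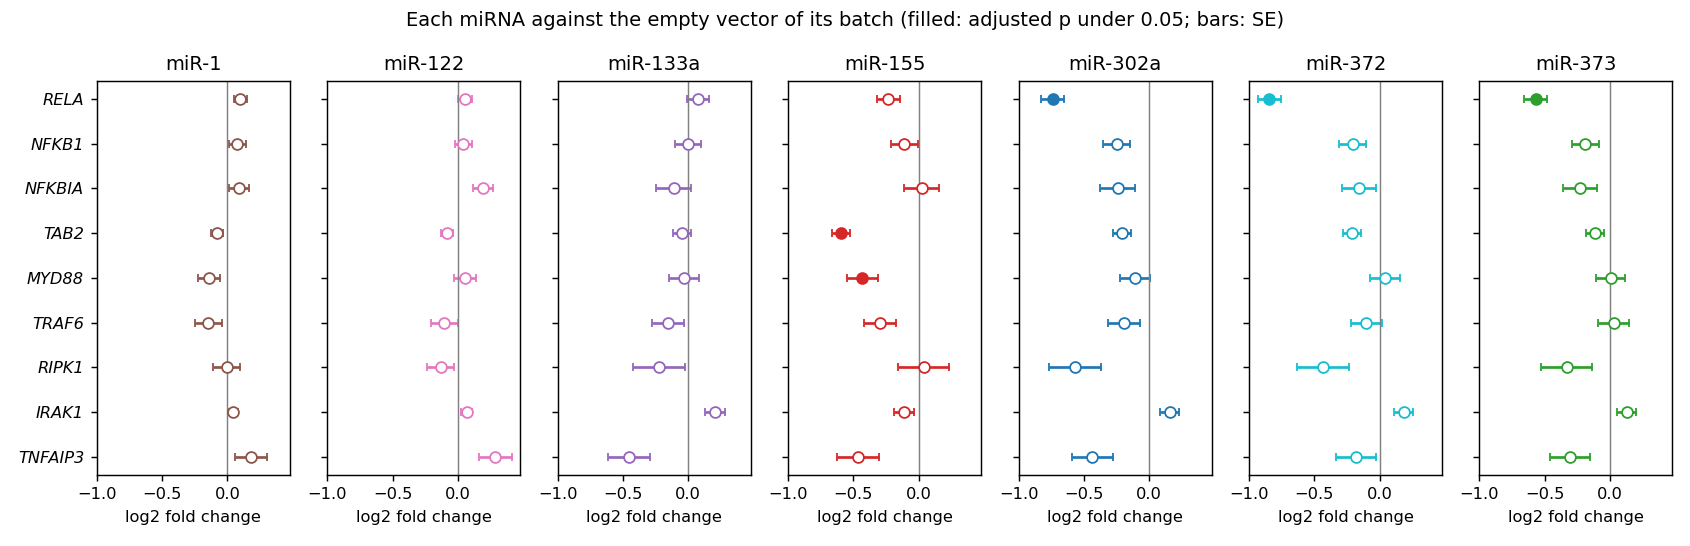
Log2 fold changes (points) with SE (bars) of the 9 genes for each of the 7 miRNAs against the empty vector of its batch; filled points had an adjusted p under 0.05. The filled points are TAB2 and MYD88 with miR-155 and RELA with miR-302a (-0.74), miR-372 (-0.84) and miR-373 (-0.57).

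None of the 9 genes was called with miR-133a (0 of 9, where 5.34% of all genes were called, and 0 of 9 called by DESeq2). At an unadjusted p under 0.05 there were 2 of 9, against 20.4% of all genes. TNFAIP3 stood at 5.62, 5.18 and 6.24 CPM with miR-133a against 8.18, 7.51 and 7.69 CPM in empty vector cells. Its groups did not overlap, and the log2 fold change of -0.45 (SE 0.16) had an adjusted p of 0.105 by edgeR's quasi-likelihood test, which fell to 0.0275 in a fit of these 2 groups alone and to 0.0414 without both libraries that stand apart. IRAK1 stood at 550, 535 and 562 CPM against 436, 492 and 501 CPM, a log2 fold change of 0.21 (SE 0.075, adjusted p = 0.1249). It passed in the fit of these 2 groups alone (0.20, adjusted p = 0.0477) and with the length slope as a covariate (0.24, adjusted p = 0.0435). TRAF6, which holds a 7mer-A1 for miR-133a, had -0.15 (SE 0.12).

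In batch 1, 0 of the 9 genes were called with miR-1, where 24.5% of all genes tested were (0 of 9 by DESeq2). At an unadjusted p under 0.05 there were 0 of 9, against 36.1% of all genes. MYD88, TRAF6 and TNFAIP3 hold a 7mer-A1 for miR-1, and their log2 fold changes were -0.14 (SE 0.086), -0.15 (SE 0.11) and 0.18 (SE 0.13). The TRAF6 value rested on the controls, which stood at 20.4 and 15.5 CPM, and it was -0.33 (adjusted p = 0.0123) without empty vector replicate 2 and 0.06 (adjusted p = 0.734) without replicate 1. With miR-122, 0 of the 9 genes were called, where 5.92% of all genes were (0 of 9 by DESeq2). At an unadjusted p under 0.05 there were 2 of 9, against 19.7% of all genes. These 2 were NFKBIA (0.19, SE 0.077, adjusted p = 0.156) and TNFAIP3 (0.29, SE 0.12, adjusted p = 0.200). IRAK1, with a 7mer-A1 for miR-122, had 0.07 (SE 0.041). Between miR-1 and miR-122, 0 of 9 were called, where 31.2% of all genes were (0 of 9 by DESeq2). At an unadjusted p under 0.05 there was 1 of 9, MYD88 at -0.19, against 41.2% of all genes. RELA in batch 1 ranged from 57.1 to 63.3 CPM over all 6 libraries, and TAB2 from 101 to 111 CPM.

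The other genes of the pathway were taken from a list of 80 receptors, adaptors, kinases, inhibitors, ubiquitin editors and subunits, of which 77 had counts and 63 were tested. With miR-155, 5 of the 63 were called lower and 1 higher, or 9.52% against 7.63% of all genes. MAP3K7, which encodes TAK1, the kinase that TAB2 binds, stood at 115, 104 and 115 CPM in empty vector cells and at 73.7, 86.3 and 79.5 CPM with miR-155. Its log2 fold change was -0.48 (SE 0.072, adjusted p = 0.000251), and its 3′UTR holds 2 miR-155 8mers. TRAF3, a ubiquitin ligase that restrains non-canonical NF-κB signalling, fell from 103, 129 and 120 CPM to 72.3, 61.3 and 78.8 CPM (-0.73, SE 0.096, adjusted p = 6.62e-05). IL1RAP, the shared subunit of interleukin-1 family receptors, fell by 0.94 on the log2 scale (SE 0.14, adjusted p = 0.000184). The deubiquitinases CYLD (-0.33, SE 0.092, adjusted p = 0.0322) and OTULIN (-0.29, SE 0.071, adjusted p = 0.0169) also fell. TRADD, an adaptor of tumour necrosis factor receptor 1, rose by 0.43 (SE 0.12, adjusted p = 0.0338). MAP3K7, CYLD and OTULIN were outside the rule for naming genes and were chosen after their values were seen. The 5 genes called lower have 6410 to 9480 bases of counted exon, and TRADD has 2472. Over all genes tested, the slope of log2 CPM on log2 length was 0.517 to 0.629 in the miR-155 libraries. It was 0.656 to 0.699 in the empty vector libraries of batch 2. A part of transcript length in the differences of these 6 genes was not tested.

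Of the 9 genes and the 63 others, 20 had a miR-155 match in the longest 3′UTR, and 6 of these were called lower (TRAF3, TAB2, MAP3K7, MYD88, CYLD and OTULIN). Of the 52 without a match, 1 was called lower (IL1RAP). Over all genes tested with a 3′UTR, 17.7% of those with a match and 2.06% of those without were called lower. The 9 genes, chosen with reported miR-155 targets among them, account for 4 of the 20 and for 2 of the 6. The share of the 20 is therefore no test of the pathway. For the same-seed family, 3 of 22 genes with a match were called lower with each member (miR-302a, miR-372, miR-373), and of the 50 without a match 3, 3 and 2 were, respectively. Over all genes tested with a 3′UTR, the shares with and without a match were 9.93% and 3.03% with miR-302a, 12.7% and 4.41% with miR-372, and 6.98% and 1.93% with miR-373.

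With the family mean, 8 of the 63 were called lower and 3 higher, or 17.5% against 15.4% of all genes. IFIH1 (MDA5), a cytoplasmic receptor for double-stranded RNA, stood at 11.1, 10.5 and 8.53 CPM in empty vector cells and at 2.63 to 5.40 CPM in the 9 family libraries. It fell by 1.33 on the log2 scale (SE 0.15, adjusted p = 9.93e-06) without a family match in its longest 3′UTR. IRAK2, a kinase of the interleukin-1 receptor complex, fell by 0.49 (SE 0.15, adjusted p = 0.0279). TNFRSF1A, the main tumour necrosis factor receptor (0.23, SE 0.068, adjusted p = 0.0278), and TNIP1, a partner of TNFAIP3 (0.17, SE 0.056, adjusted p = 0.0453), rose. TAB3, a homologue of TAB2, fell by 0.30 (SE 0.073, adjusted p = 0.00853) and CASP8, a protease that joins death receptor complexes, by 0.37 (SE 0.087, adjusted p = 0.00767), values outside the naming rule for the family mean and chosen after they were seen. TIRAP, an adaptor that joins MYD88 to membrane receptors, fell by 0.54 with miR-372 (SE 0.15, adjusted p = 0.0288). With the single miRNAs, 5, 6 and 4 of the 63 were called (miR-302a, miR-372 and miR-373, in that order), or 7.94%, 9.52% and 6.35% against 7.88%, 11.4% and 5.13% of all genes.

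**Figure D4:**
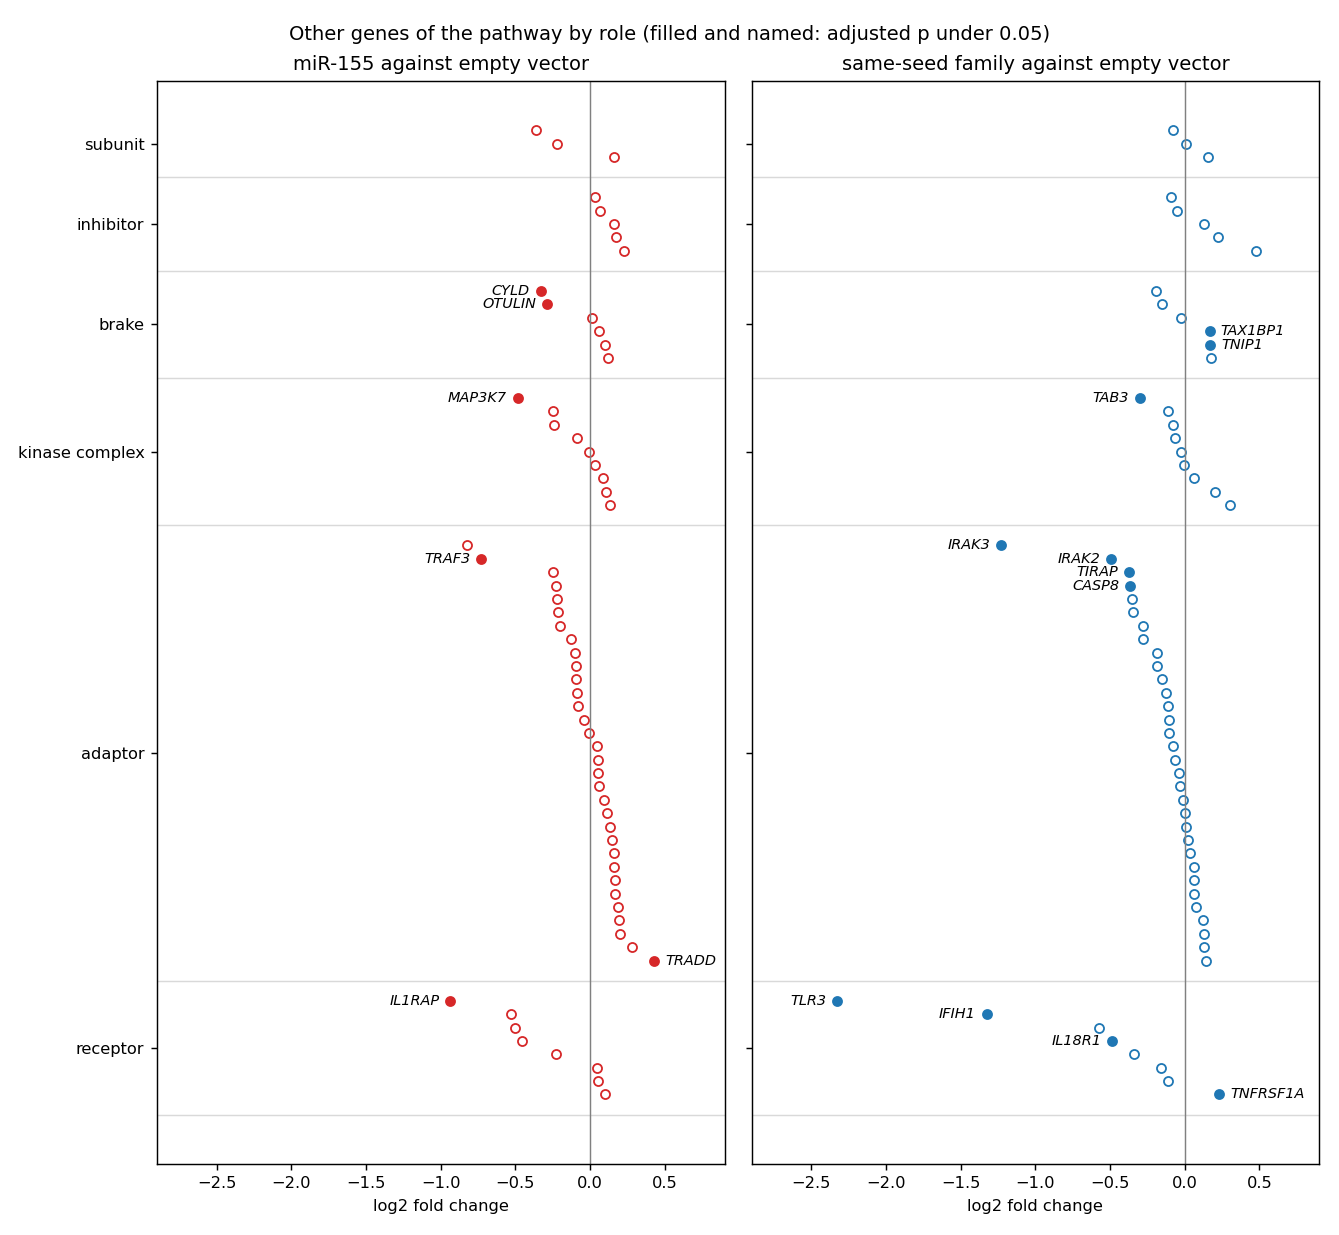
Log2 fold changes of the 63 other pathway genes tested, by role, for miR-155 and for the mean of the same-seed family against empty vector; filled, named points had an adjusted p under 0.05. With miR-155, 6 points are filled, and with the family 11, of which TLR3 and IRAK3 had mean levels under 1 on the log2 CPM scale.

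With miR-133a, 1 of the 63 was called (1.59% against 5.34% of all genes), CHUK, an IκB kinase subunit (-0.30, SE 0.086, adjusted p = 0.0434), which holds a 7mer-A1 for miR-133a. With miR-122, 2 of 63 were called (3.17% against 5.92% of all genes, and 0 of 63 by DESeq2), SARM1 (-0.25, SE 0.059, adjusted p = 0.0128) and RNF31 (0.20, SE 0.058, adjusted p = 0.0434). With miR-1, 16 of 63 were called, or 25.4% against 24.5% of all genes, 11 lower and 5 higher, but 3 of 63 by DESeq2. Among those at a mean level of at least 1 on the log2 CPM scale, the lowest were BIRC3 (-0.57, SE 0.16, adjusted p = 0.0148) and IL18R1 (-0.50, SE 0.17, adjusted p = 0.0405), and the highest were TRAF2 (0.22, SE 0.053, adjusted p = 0.00520) and the inhibitor NFKBIB (0.32, SE 0.049, adjusted p = 0.000113). TLR3, under that level, was lower still (-0.95, SE 0.33, adjusted p = 0.0436).

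Transcripts that NF-κB is known to induce were taken from a list of 25, of which 23 had counts. Of the 9 tested in batch 2, 0 were called by edgeR's quasi-likelihood test or by DESeq2 with miR-302a, miR-372, miR-373 or their mean, the groups in which RELA was lowest, where 7.88%, 11.4%, 5.13% and 15.4% of all genes were called. At an unadjusted p under 0.05 there were 0, 3 and 1 of 9 with these miRNAs, respectively, and 3 of 9 with the mean. Their median log2 fold change with the family mean was 0.08, against 0.00 for all genes tested. The list leaves out NFKBIA and TNFAIP3, which are among the genes chosen by symbol. With the family mean these were at -0.21 (adjusted p = 0.192) and -0.31 (adjusted p = 0.103, edgeR quasi-likelihood test), and neither passed in the fit reported. Both were below every control in all libraries of miR-302a and of miR-373, and overlapped the controls with miR-372. Under the alternatives, NFKBIA passed in 2 of 21 fits of the family mean, where its values ran from -0.40 to -0.18. With single miRNAs NFKBIA passed in 1 of 15 fits with miR-302a, 2 of 15 with miR-372 and 1 of 15 with miR-373. With miR-155, 1 of 9 was called, where 7.63% of all genes were, IER3, an immediate early gene (0.52, SE 0.14, adjusted p = 0.0314), and 2 of 9 were by DESeq2. In the direct contrasts between miRNAs, 1 of 9 was lower (IRF1) and 3 were higher (IER3, BCL2L1 and PTGS2) with miR-155 than with the other miRNAs, where 25.0% of all genes were called. With the family, 2 of 9 were lower than with miR-133a and miR-155, where 27.8% of all genes were called, IER3 (-0.36, SE 0.090, adjusted p = 0.00604) and PTGS2 (-0.98, SE 0.20, adjusted p = 0.00133). These genes were named after their values were seen, and PTGS2 had a mean level under 1 on the log2 CPM scale. With miR-133a, 0 of 9 were called by either tool (5.34% of all genes called), and 1 of 9 had an unadjusted p under 0.05, against 20.4% of all genes. With miR-1 and miR-122, 0 of the 11 tested in batch 1 were called by either tool (24.5% and 5.92% of all genes called). At an unadjusted p under 0.05 there were 0 and 3 of 11, against 36.1% and 19.7% of all genes. The labels name no stimulus of NF-κB.

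The 5 genes whose pattern over the 18 libraries of batch 2 was most like that of TAB2 were FBXO11 (Pearson r = 0.972), SATB1 (0.959), DHX40 (0.953), TCF4 (0.949) and PAK2 (0.944), among 10633 genes at a mean level of 3 or more on the log2 CPM scale. The 18 points share batch and groups, and the values are descriptions. Each of the 5 was lower with miR-155 than with empty vector, by 0.53 (FBXO11) to 0.84 (DHX40 and TCF4) on the log2 scale. TAB2 was picked for its difference with miR-155, so this direction follows from the choice of genes.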

How the data were processed

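RNA-seq of 24 libraries (1000 ng of total RNA each) was analysed. The authors trimmed and aligned reads to hg19 with TopHat2 2.1.1 and counted them per gene over exons by strand with featureCounts. The deposited values are whole-number counts per gene, not normalized, in 1 table per batch. Deposited tables of the authors' own comparisons (edgeR 3.24.3) hold fold changes and p-values and were not used.

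Identifiers were matched to GENCODE symbols on GRCh37 (28543 of 29794 genes). Counts of each batch were fitted in R 4.3.3 with edgeR 4.0.16: filterByExpr (minimum count 10), TMM, all groups of the batch, quasi-likelihood test, prior count 0.125, Benjamini-Hochberg over all genes tested, threshold 0.05. The SE was obtained as |log2 fold change| / √F, and CPM and SD use TMM-scaled library sizes. The functions were tested on simulated data. DESeq2 1.42.0 was an alternative, as were other filters, scaling, groups, the replicate block, the length slope of each library and leaving out libraries. Shares of all genes printed beside DESeq2 counts are those of the edgeR fit. Replicates differed by more than sampling noise (chi-square per degree of freedom of at least 1.81).

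The genes and lists were chosen with earlier results of these data known. Besides the 10 genes, the naming rule took at most 2 lowest and 2 highest called list genes per comparison (mean log2 CPM of at least 1). It also took the 5 genes most like TAB2, the gene with the smallest adjusted p with miR-155. MAP3K7, CYLD, OTULIN, TAB3, IRF1, BCL2L1, PTGS2, TLR3 and IRAK3 were named outside this rule. A further blood cell marker is not reported here.

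Replicate numbers were checked for pairing by the correlation of deviations from group means. For the pairs of miRNA and empty vector groups it ranged from -0.04 to -0.03 in batch 1 and from -0.19 to 0.22 in batch 2, and for none of these pairs were all same-numbered libraries above 0.1. Between miRNA groups they were for 5 pairs (miR-155 with miR-133a, miR-302a and miR-372, and miR-372 with miR-133a and miR-302a).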

Additional observations from a re-analysis of the deposited data

How the results depend on the processing

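Among 1593 log2 fold changes of single genes of the 9 under the alternatives, 0 changed sign where either value was called, 40 changed sign with neither called, 61 lost the call and 50 gained it. The calls of RELA with each of the same-seed miRNAs and of TAB2 with miR-155 held under every alternative run. The number of the 9 genes called changed as follows, and the cause was not tested.

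In a fit of only the groups compared it was 2 with miR-133a (0 in the fit reported), 1 with miR-155 (2), 2 with miR-302a (1), 1 with the family mean (2) and 2 for the family against miR-133a and miR-155 (4). With the length slope as a covariate it was 1 with miR-133a, 1 with miR-155, 2 with miR-302a, 2 with miR-372, 2 with miR-373 (1 for each in the fit reported) and 4 with the family mean. With both libraries that stand apart left out, an alternative chosen after seeing the data, it was 1 with miR-133a, 4 with miR-302a, 3 with miR-372 and 5 with the family mean. Without a filter on low counts it was 2 with miR-302a and 2 for the family against miR-133a and miR-155. With miR-372 it was 2 by DESeq2, by the likelihood ratio test and with more than 1 CPM in every library. With the replicate number as a block it was 3 with miR-302a, 3 with miR-372 and 4 with the family mean, and within 1.5 times the reported count in the other comparisons, although the numbers do not pair these libraries with the controls.

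Leaving out each library in turn gave 0 to 1 with miR-1, 0 with miR-122, 0 for miR-1 against miR-122, 0 with miR-133a, 1 to 3 with miR-155, 1 to 3 with miR-302a, 1 to 2 with miR-372, 1 with miR-373, 4 to 6 for miR-155 against the other miRNAs, 1 to 6 for the family against miR-133a and miR-155 and 1 to 4 with the family mean. In batch 1 this leaves 1 library in a group, which is assumed to vary like the others. The calls among all genes moved as well in these fits of batch 2. They ranged from 494 to 991 with miR-155 (1073 in the fit reported) and from 479 to 1764 with miR-302a (1107). With miR-372 the range was 856 to 1827 (1599), with miR-373 346 to 502 (721) and with the family mean 1100 to 2525 (2164). Whether the counts of the genes described here follow this general change was not tested. With 8mer and 7mer-m8 matches only, the genes with a 3′UTR match became 0 for miR-1 (from 3), 0 for miR-122 (from 1) and 0 for miR-133a (from 1), and the search of any annotated 3′UTR changed no count. Depth limits TNFAIP3 and RIPK1 most, with as few as 59 and 103 counts in a library.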
